A study of Mus musculus with 6 samples.

Results

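The 10 genes described here encode receptors through which hormones, vasoactive peptides and nerve transmitters control the uterine muscle layer, the myometrium. They are Oxtr, Avpr1a, Ednra, Ednrb, Agtr1a, Chrm2, Chrm3, Adra1a, Adra2a and P2rx1, and they were taken by symbol from a table of 26586 genes, in which all 10 were found. The rule that picks them uses their symbols and no measured value, but the set was chosen with earlier results of these data known. All 10 had enough reads to be tested in the comparison of cell fractions.

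As background, most of these receptors couple to heterotrimeric G proteins. The oxytocin, vasopressin V1a, endothelin, angiotensin II type 1, muscarinic M3 and alpha-1A receptors act through Gq, which activates phospholipase C, releases calcium from stores and leads to phosphorylation of myosin light chain. The muscarinic M2 and alpha-2A receptors act through Gi, which lowers cyclic AMP, and P2rx1 is a cation channel opened by extracellular ATP. In the uterus these receptors are best known from muscle and blood vessels, and several are also found in stroma, epithelium and nerve endings.

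The libraries are total RNA, depleted of ribosomal RNA, of sorted endometrial cells from 3 Axin2rtTA; tetOH2BJGFP mice, as the labels spell the strain. The Axin2 promoter drives rtTA, an activator that needs doxycycline, and rtTA drives a histone H2B-GFP fusion, so cells with Axin2 promoter activity become green. Each of 3 libraries of GFP-positive cells, labelled Axin2+, and 3 of GFP-negative cells, labelled Axin2-, bears a numeral that the labels call the mouse number. All mice carried both transgenes. Their ovaries were removed at 4 weeks, doxycycline followed after a rest of 2 weeks, and the cells were taken 4 days later, at an age given as 6 weeks. The sort thus reads the reporter and not the Axin2 transcript, and the ovarian hormones were withdrawn in both fractions. The same labels speak of pooling the cells of the mice, so the p-values may measure only the spread between libraries, and every count of mice below rests on the numerals. Fractions are named below by their labels.

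Library totals lay between 49714402 and 59597315 counted reads, and levels are given in CPM, reads scaled to a common depth with TMM factors. Of 16896 genes tested, 12.8% fell and 14.5% rose in Axin2+ over Axin2-, 27.3% in either direction, at an adjusted p of at most 0.05 in the quasi-likelihood test of edgeR. The Axin2 transcript itself stood at 165, 243 and 299 CPM in the Axin2+ libraries of mice 1, 2 and 3, against 369, 357 and 356 CPM in the Axin2- libraries, and did not pass (adjusted p = 0.0710). Its level thus ran against the labels, lower in Axin2+ in 3 of 3 mice, and it passed as lower in DESeq2 (0.0338) and without the Axin2+ library of mouse 3 (0.0290). Both fractions are labelled epithelial, yet only the Axin2+ libraries were rich in the 16 epithelial markers, of which 16 rose. Their summed level was 2999 to 4106 CPM in Axin2+ and 249 to 368 CPM in Axin2-. The summed level of the 14 smooth muscle markers was 546 to 809.5 CPM in Axin2+ and 3502 to 8832 CPM in Axin2-, and 14 of them fell. No gene of either list was at 0 in a whole fraction. The summed 12 stromal fibroblast markers lay above the epithelial sum in both fractions, at 7152 to 10078 CPM in Axin2+ and 13543 to 26582 CPM in Axin2-. The summed 9 macrophage markers stood at 692 to 4003 CPM in Axin2+ and 66.7 to 364 CPM in Axin2-. Myh11, the smooth muscle myosin, stood at 35.0 ± 3.45 CPM in Axin2+ and 2030.2 ± 1075 CPM in Axin2-, and Epcam, an epithelial adhesion molecule, at 227 ± 25.0 CPM in Axin2+ and 12.4 ± 5.45 CPM in Axin2- (SD, n = 3 each).

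Of the 10 receptors, 4 fell in Axin2+ relative to Axin2-: Oxtr, Ednra, Agtr1a and Adra2a. None rose in the edgeR test, in which 0 rose at an unadjusted p under 0.05 as well, while DESeq2 called 1, Ednrb, higher. The other 6, Ednrb, Avpr1a, Chrm2, Chrm3, Adra1a and P2rx1, did not pass. The 4 that fell stand beside a share of 12.8% of all tested genes that fell, and the median log2 fold change was -1.09 over the 10 receptors and -0.01 over all genes tested. In those 4 every Axin2+ library lay below every Axin2- library, which held for 23.2% of all tested genes, and for 47.2% in either direction. Chrm3 was the 1 receptor with every Axin2+ library above every Axin2- library, which held for 23.9% of all tested genes. In bulk libraries fewer cells of a type and less RNA per cell cannot be told apart. The 14 smooth muscle markers, 5 of 7 tested pericyte markers and 10 of 12 stromal fibroblast markers fell in the same libraries, and their part in the fall of the receptors was not tested.

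**Figure D1:**
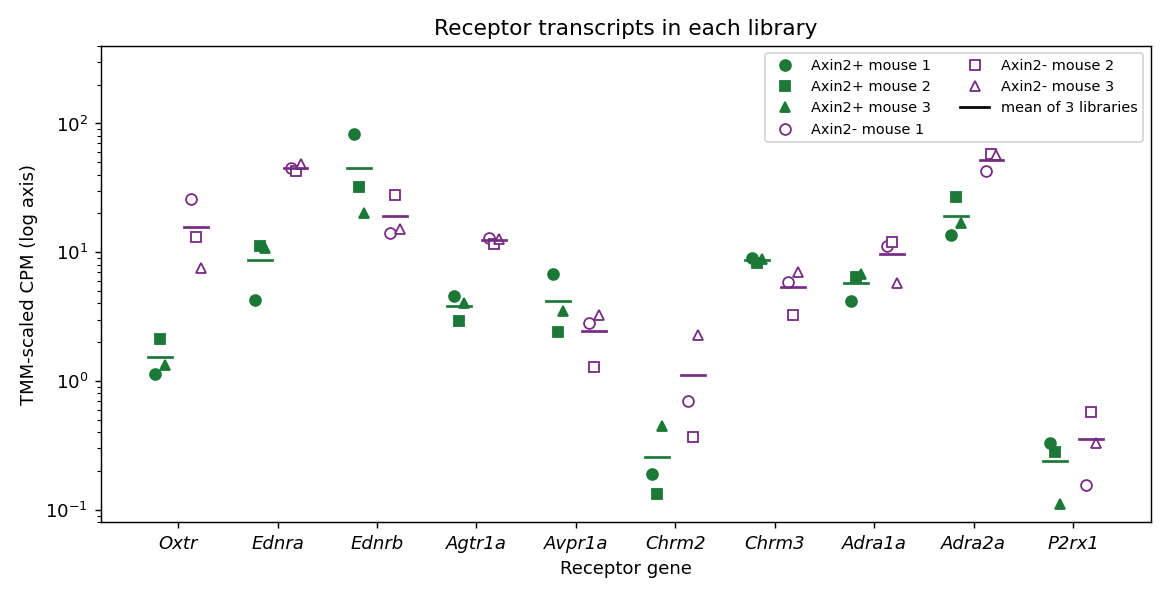
TMM-scaled CPM (log axis) of the 10 receptor genes in each of 6 libraries, with filled green symbols for Axin2+, open purple symbols for Axin2-, a symbol shape per mouse and a line at the mean of 3 libraries. Oxtr, Ednra, Agtr1a and Adra2a lie lower in all 3 Axin2+ libraries than in any Axin2- library.

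Oxtr, the receptor for oxytocin that drives contraction of the myometrium at birth, showed the largest fall of the 10 (ENSMUSG00000049112, chromosome 6, 112473683 to 112489943 on the minus strand of GRCm38). It stood at 1.14, 2.11 and 1.32 CPM in the Axin2+ libraries of mice 1, 2 and 3, against 26.1, 13.2 and 7.58 CPM in the Axin2- libraries. The Axin2+ libraries were uniformly low, and the Axin2- libraries differed among themselves 3.44-fold, with mouse 1 highest and mouse 3 lowest. The log2 fold change was -3.36 ± 0.51 (SE), with an edgeR adjusted p of 0.00395, and Oxtr was lower in Axin2+ in 3 of 3 mice. Without the Axin2- library of mouse 1, the highest, the log2 fold change was -2.74 (adjusted p = 0.0100).

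Avpr1a, the V1a receptor for the related peptide vasopressin, did not follow Oxtr (ENSMUSG00000020123, chromosome 10, 122448499 to 122453452 on the plus strand). Its levels were 6.76, 2.40 and 3.48 CPM in Axin2+ and 2.80, 1.29 and 3.25 CPM in Axin2- of mice 1, 2 and 3. The fractions overlapped, and within every mouse the Axin2+ library was the higher. In edgeR Avpr1a did not pass (log2 fold change 0.78 ± 0.52 SE, adjusted p = 0.298), and its log2 fold change was 0.27 without the Axin2+ library of mouse 1. The ratio of Avpr1a to Oxtr, each in CPM per kilobase of exon, was 10.7, 2.03 and 4.73 in Axin2+ and 0.193, 0.176 and 0.770 in Axin2- of mice 1, 2 and 3. Avpr1a was thus the more abundant transcript of the pair in each Axin2+ library and Oxtr in each Axin2- library.

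The 250 bases before the RefSeq start of 3 receptor genes are shown because they set a gene that fell in each of 2 families, Oxtr and Ednra, beside Avpr1a, the close relative of Oxtr that did not. They are from RefSeq on GRCm38.p6, at chr6:112489826-112490075 on the minus strand, chr8:77724453-77724702 on the minus strand and chr10:122448249-122448498 on the plus strand. RefSeq promoters were matched for 8 of the 10 receptors, all but Agtr1a and Adra1a. The annotation GENCODE M21 places the starts of Oxtr and Ednra inside the windows shown, so that the GC box and both E-boxes of the Oxtr window lie after its GENCODE start, and the E-box of the Ednra window lies before its GENCODE start. Capitals mark matches on either strand to TATAAA, to the GC box GGGCGG or to the E-box CANNTG, and the CArG box, a motif of many smooth muscle genes, was searched as well.
Oxtr promoter: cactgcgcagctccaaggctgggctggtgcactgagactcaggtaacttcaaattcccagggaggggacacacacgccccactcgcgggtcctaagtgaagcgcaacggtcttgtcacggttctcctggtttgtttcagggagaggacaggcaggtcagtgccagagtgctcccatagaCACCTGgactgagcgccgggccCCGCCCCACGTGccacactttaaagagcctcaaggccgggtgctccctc
Ednra promoter: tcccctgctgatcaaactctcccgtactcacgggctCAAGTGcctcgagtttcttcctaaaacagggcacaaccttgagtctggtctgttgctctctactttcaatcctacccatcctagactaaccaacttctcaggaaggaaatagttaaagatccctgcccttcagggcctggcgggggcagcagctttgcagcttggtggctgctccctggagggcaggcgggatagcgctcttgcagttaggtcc
Avpr1a promoter: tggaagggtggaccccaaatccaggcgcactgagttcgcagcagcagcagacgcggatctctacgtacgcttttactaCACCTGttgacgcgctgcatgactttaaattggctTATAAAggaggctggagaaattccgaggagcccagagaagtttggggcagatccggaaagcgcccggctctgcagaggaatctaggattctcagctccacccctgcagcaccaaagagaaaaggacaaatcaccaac
The Oxtr window held a GC box and 2 E-boxes that do not overlap it, the Ednra window held 1 E-box, and the Avpr1a window held TATAAA and 1 E-box. Of the windows not shown, that of Adra2a, which fell, held TATAAA, a GC box and 1 E-box. That of Chrm2 held a GC box, and those of Ednrb, Chrm3 and P2rx1 held none of these motifs. The windows of Adra2a and Ednrb lie after their GENCODE starts. No CArG box lay in the windows of the 8 receptors, and 1.47% of 32851 RefSeq promoter windows of the same length held it. TATAAA was in 12.4%, the GC box in 32.7% and the E-box in 66.2% of those windows.

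Of the endothelin receptors, Ednra fell and Ednrb did not pass. Ednra, the type A receptor that mediates contraction of smooth muscle (ENSMUSG00000031616, chromosome 8, 77663031 to 77724464 on the minus strand), stood at 4.28, 11.1 and 10.7 CPM in Axin2+ and 44.7, 42.6 and 48.8 CPM in Axin2- of mice 1, 2 and 3. The Axin2- libraries were nearly equal, within 1.15-fold, and mouse 1 was lowest among the Axin2+ libraries. Ednra fell by 2.38 ± 0.35 (SE) on the log2 scale (edgeR adjusted p = 0.00365), in 3 of 3 mice. An exon of Ednra overlaps a noncoding transcript on the other strand, 4933431K23Rik, and the strand setting of the counting is not given in the sources used here.

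Ednrb, the type B receptor, which in vessels clears endothelin and signals for relaxation from the endothelium (ENSMUSG00000022122, chromosome 14, 103814625 to 103844402 on the minus strand), stood at 82.7, 31.9 and 19.99 CPM in Axin2+ and 14.1, 27.6 and 15.2 CPM in Axin2- of mice 1, 2 and 3. Mouse 1 was far above the other Axin2+ libraries, and the fractions overlapped, since the Axin2- library of mouse 2 lay above the Axin2+ library of mouse 3. Within each mouse Ednrb was higher in Axin2+, by log2 ratios of 2.56, 0.21 and 0.40. Ednrb did not pass in edgeR (log2 fold change 1.24 ± 0.54 SE, adjusted p = 0.128). DESeq2 called it higher with an adjusted p of 0.0409, as did edgeR once the Axin2+ library of mouse 3 was left out (log2 fold change 1.60, adjusted p = 0.0495). Without the Axin2+ library of mouse 1 the log2 fold change was 0.45 (adjusted p = 0.397). Over all 13 alternatives the adjusted p ranged from 0.0409 to 0.397. The Axin2+ library of mouse 1 was also the highest in the summed 9 macrophage markers, at 4003, 2109 and 692 CPM in Axin2+ and 272, 66.7 and 364 CPM in Axin2-, and in the summed 5 mesothelial markers, at 471, 166 and 272 CPM in Axin2+ and 224, 174 and 186 CPM in Axin2-. Fibroblast and epithelial sums were highest in that library too. Among the Axin2- libraries Ednrb was lowest in mouse 1 and highest in mouse 2. Epithelial, endothelial and interstitial cell sums had that order, whereas the macrophage and mesothelial sums were lowest in mouse 2. Of the mesothelial markers 3 rose and 1 fell. Of the macrophage markers 8 rose, although those that passed numbered 0 without the Axin2- library of mouse 1, 3 without that of mouse 3, 3 without the Axin2+ library of mouse 2 and 5 without that of mouse 1 or without the Axin2- library of mouse 2. With mouse as a block they numbered 4. None of these markers was at 0 in a whole fraction, and their part in the Ednrb level was not tested.

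Per kilobase of exon, Ednrb exceeded Ednra by factors of 24.8, 3.68 and 2.39 in the Axin2+ libraries of mice 1, 2 and 3, and the same ratio was 0.404, 0.832 and 0.399 in the Axin2- libraries. Type B transcript was thus the more abundant of both endothelin receptors in every Axin2+ library, and type A in every Axin2- library. This ratio and the other receptor ratios were chosen after the levels had been seen and are given with no test.

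**Figure D2:**
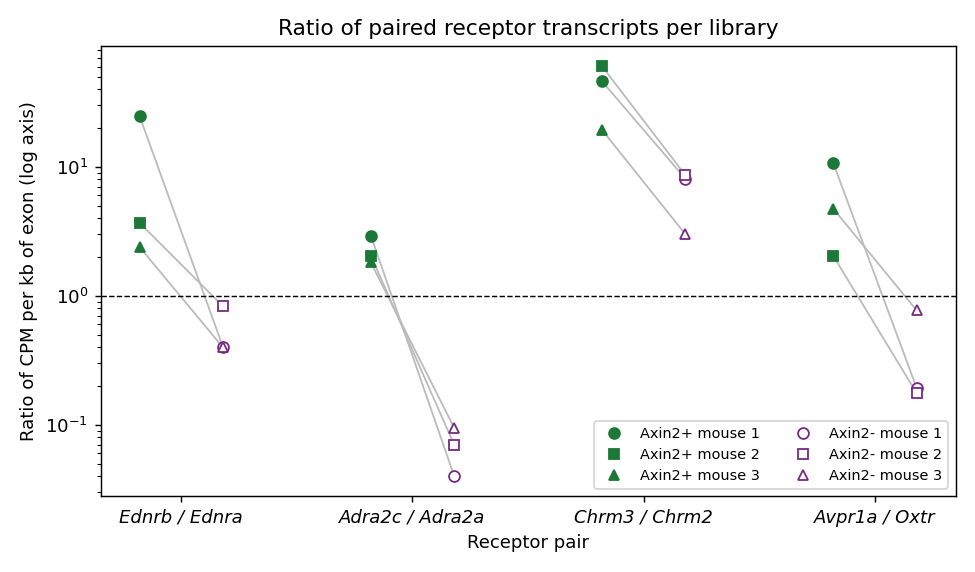
Ratio of CPM per kilobase of exon (log axis) for 4 receptor pairs in each library, with Axin2+ at the left and Axin2- at the right of each pair, grey lines joining the libraries of a mouse and a dashed line at equal level. Ednrb over Ednra and Avpr1a over Oxtr lie above 1 in all 3 Axin2+ libraries and below 1 in all 3 Axin2- libraries, as does Adra2c over Adra2a.

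Agtr1a, the type 1 receptor for angiotensin II (ENSMUSG00000049115, chromosome 13, 30336441 to 30382867 on the plus strand), was lower in Axin2+ with little spread among the Axin2- libraries. It stood at 4.55, 2.93 and 4.06 CPM in Axin2+ and 12.9, 11.6 and 12.6 CPM in Axin2- of mice 1, 2 and 3. The Axin2- libraries agreed within 1.11-fold and the fractions lay well apart. Agtr1a fell by 1.68 ± 0.24 (SE) on the log2 scale (edgeR adjusted p = 0.00309), in 3 of 3 mice. Agtr2, the type 2 receptor that in many tissues opposes type 1, had 4, 0 and 4 reads in Axin2+ and 54, 21 and 98 reads in Axin2-, and also fell (adjusted p = 0.0247). That call was lost without the Axin2- library of mouse 1 or 3 or the Axin2+ library of mouse 2 (adjusted p = 0.0622, 0.0855 and 0.0578). The fitted log2 fold change of Agtr2 was -4.50 with all libraries and -3.80 without the Axin2- library of mouse 3. Agtr1b had too few reads to be tested.

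Of the muscarinic acetylcholine receptors, Chrm2 and Chrm3 did not pass in either direction. Chrm3, the Gq-coupled M3 receptor (ENSMUSG00000046159, chromosome 13, 9875486 to 10360847 on the minus strand), stood at 9.02, 8.21 and 8.91 CPM in Axin2+ and 5.85, 3.27 and 7.08 CPM in Axin2- of mice 1, 2 and 3. The Axin2+ libraries were close together and all above the Axin2- libraries, of which mouse 2 was lowest. The log2 fold change was 0.69 ± 0.31 (SE; edgeR adjusted p = 0.145). Chrm2, the Gi-coupled M2 receptor (ENSMUSG00000045613, chromosome 6, 36388084 to 36528414 on the plus strand), was near the lower limit of the data, with 11, 7 and 24 reads in Axin2+ and 36, 21 and 111 reads in Axin2-. It was lower in Axin2+ in 3 of 3 mice, but the Axin2- library of mouse 3 held most of its reads. It missed the threshold (edgeR adjusted p = 0.119) at a log2 fold change of -2.11 ± 0.89 (SE), which was -1.04 without that library. An exon of Chrm2 overlaps the noncoding gene 9330158H04Rik on the other strand. Per kilobase of exon Chrm3 exceeded Chrm2 in every library, by factors of 46.0, 60.2 and 19.3 in Axin2+ and 8.09, 8.62 and 3.0 in Axin2-.

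Of the alpha adrenoceptors, which bind noradrenaline and adrenaline, Adra2a fell and Adra1a did not pass. Adra2a (ENSMUSG00000033717, chromosome 19, 54044151 to 54048982 on the plus strand) stood at 13.7, 26.8 and 16.9 CPM in Axin2+ and 42.8, 57.5 and 56.7 CPM in Axin2- of mice 1, 2 and 3. The fractions did not overlap, and the Axin2- libraries lay within 1.34-fold of each other. It fell by 1.45 ± 0.27 (SE) on the log2 scale (edgeR adjusted p = 0.00794), in 3 of 3 mice. Adra1a, the Gq-coupled alpha-1A receptor (ENSMUSG00000045875, chromosome 14, 66635251 to 66771168 on the plus strand), stood at 4.18, 6.44 and 6.83 CPM in Axin2+ and 11.3, 12.0 and 5.77 CPM in Axin2-. Mice 1 and 2 had it lower in Axin2+, and mouse 3 had it higher. Its log2 fold change was -0.74 ± 0.35 (SE; edgeR adjusted p = 0.158), and -0.99 without the Axin2- library of mouse 3 (adjusted p = 0.0617).

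P2rx1, the ATP-gated channel by which sympathetic nerves excite some smooth muscles (ENSMUSG00000020787, chromosome 11, 72999103 to 73015200 on the plus strand), was barely detected. It had 19, 15 and 6 reads in Axin2+ and 8, 33 and 16 reads in Axin2- of mice 1, 2 and 3. No direction was shared by the mice, the log2 fold change was -0.55 ± 0.80 (SE; edgeR adjusted p = 0.646), and a difference was not detectable at this depth.

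Ordered by level, in CPM per kilobase of exon, the receptors of the Axin2+ libraries ran from Ednrb (mean 10.5) through Adra2a (3.96), Ednra (1.59), Avpr1a (1.58), Chrm3 (1.39), Agtr1a (1.38), Adra1a (0.666) and Oxtr (0.318) to P2rx1 (0.0918) and Chrm2 (0.0423). The library ranges of Ednrb and Adra2a overlapped, as did those of neighbours from Ednra to Agtr1a, and those of P2rx1 and Chrm2. In the Axin2- libraries Adra2a (10.8) and Ednra (8.29) came first, with overlapping ranges. Ednrb (4.44), Agtr1a (4.44) and Oxtr (3.26) followed with ranges that overlapped from neighbour to neighbour, and so did Adra1a (1.11), Avpr1a (0.917) and Chrm3 (0.864). Chrm2 (0.185) and P2rx1 (0.135) were last there. Oxtr thus stood among the 5 highest receptors in Axin2- and above only P2rx1 and Chrm2 in Axin2+.

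The other subtypes of the same families did not move in a common direction. Of 20 listed, 14 had enough reads, of which 3 rose and 5 fell, with a median log2 fold change of -0.42. Over all tested genes 14.5% rose and 12.8% fell. Adra2c, a Gi-coupled relative of Adra2a, rose to 28.7, 39.1 and 21.9 CPM in Axin2+, against 1.22, 2.87 and 3.83 CPM in Axin2-. Its log2 fold change was 3.50 ± 0.45 (SE; edgeR adjusted p = 0.00203), opposite in sign to that of Adra2a. Per kilobase of exon the ratio of Adra2c to Adra2a was 2.93, 2.05 and 1.81 in Axin2+ and 0.0402, 0.0700 and 0.0947 in Axin2- of mice 1, 2 and 3, so that the more abundant alpha-2 transcript differed between fractions. Adra1b had 111, 85 and 66 reads in Axin2+ and 3, 0 and 3 reads in Axin2-. It rose with an edgeR adjusted p of 0.00720, and its fitted log2 fold change was 5.26 with all libraries and 4.67 without the Axin2- library of mouse 2. Its relative Adra1d had 16, 13 and 24 reads in Axin2+ and 145, 34 and 131 reads in Axin2-, and it fell (adjusted p = 0.0314). The call of Adra1d held in 1 of 6 fits that left out a library, the fit without the Axin2- library of mouse 2, and was lost with mouse as a block (0.0522). Per kilobase of exon Adra1b over Adra1a was 1.18, 0.643 and 0.464 in Axin2+ and 0.0133, 0 and 0.0277 in Axin2-. Adra1d over Adra1a was 0.304, 0.175 and 0.301 in Axin2+ and 1.15, 0.227 and 2.15 in Axin2-. Neither of these ratios lay on opposite sides of 1 in the fractions of every mouse.

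Among the ATP-gated channels P2rx5 fell, with 1, 5 and 4 reads in Axin2+ and 136, 57 and 80 reads in Axin2- (log2 fold change -4.79 ± 0.80 SE, edgeR adjusted p = 0.00547). P2rx4 rose (log2 fold change 0.92, adjusted p = 0.0345) and P2rx7 fell (log2 fold change -0.65, adjusted p = 0.0361). Each of these last calls was lost in 5 of 6 fits that left out a library, at adjusted p up to 0.109 and 0.105. P2rx4 kept its call without the Axin2+ library of mouse 3, and P2rx7 without the Axin2- library of mouse 1. Chrm4, the other subtype that fell, kept its call in 1 of those 6 fits, without the Axin2+ library of mouse 1 (log2 fold change -2.02, adjusted p = 0.0386 with all libraries). With mouse as a block P2rx4, P2rx7 and Chrm4 did not pass (adjusted p = 0.0790, 0.0838 and 0.0520), and P2rx7 did not with library-size scaling (0.0651). The number of subtypes that passed, 8 with all libraries, was 4 without the Axin2- library of mouse 1 and 5 without the Axin2- library of mouse 2 and 3 without the Axin2- library of mouse 3 and 3 without the Axin2+ library of mouse 2 and 5 without the Axin2+ library of mouse 3. It was 4 with mouse as a block.

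**Figure D3:**
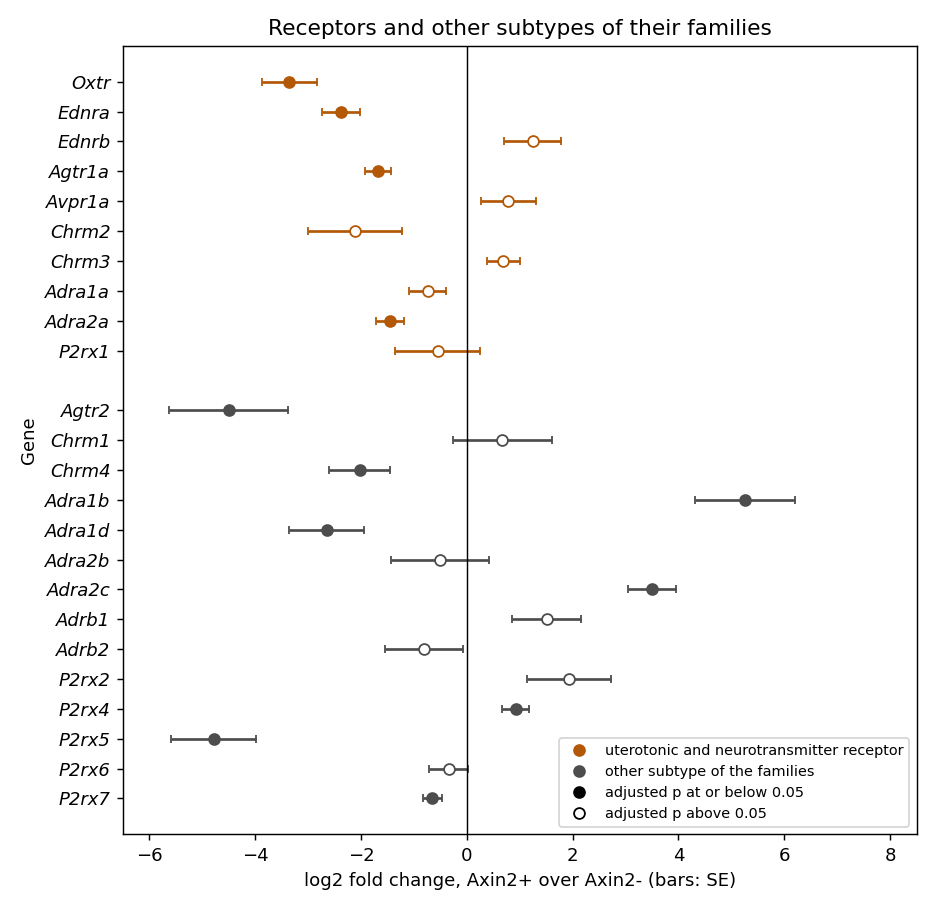
Log2 fold change of Axin2+ over Axin2- with its SE for the 10 receptors (orange) and for 14 tested subtypes of the same families (grey), filled where the edgeR adjusted p was at most 0.05. Oxtr, Ednra, Agtr1a and Adra2a lie left of 0, and Adra1b and Adra2c lie farthest to the right.

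Genes for ligands of these receptors and for their synthesis and breakdown changed in both directions, at shares near those of all tested genes (14.5% rose and 12.8% fell). Of 30 listed, 20 had enough reads, of which 4 rose and 3 fell, with a median log2 fold change of -0.23. Edn1, which encodes the ligand of both endothelin receptors, rose to 47.5, 25.9 and 24.5 CPM in Axin2+, against 5.29, 4.404 and 3.19 CPM in Axin2- (log2 fold change 2.92 ± 0.33 SE, edgeR adjusted p = 0.00125). All Axin2+ libraries lay above all Axin2- libraries for Edn1, the reverse of Ednra. Edn3, an endothelin that binds the type B receptor better than type A, stood at 1.79, 3.34 and 6.90 CPM in Axin2+ and 9.22, 19.1 and 25.7 CPM in Axin2- and fell (adjusted p = 0.0295). That call was lost without the Axin2- library of mouse 2 or 3 or the Axin2+ library of mouse 2 (adjusted p = 0.0691, 0.0960 and 0.100), and the log2 fold change of -2.17 was -2.81 without the Axin2+ library of mouse 3. Mme, which encodes the peptidase neprilysin that breaks down endothelin and other peptides, rose to 155 ± 19.1 CPM in Axin2+, against 62.3 ± 19.4 CPM in Axin2- (SD, n = 3 each; edgeR adjusted p = 0.00645). Ece1, which matures endothelin, did not pass (log2 fold change 0.36, adjusted p = 0.110), and it passed as higher with library-size scaling (0.0439).

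For the adrenoceptor ligands, Slc6a2, the noradrenaline transporter, fell to 23.0, 22.5 and 47.4 CPM in Axin2+, against 127, 166 and 82.6 CPM in Axin2- (log2 fold change -2.01 ± 0.37 SE, edgeR adjusted p = 0.00853). Th and Dbh, which make noradrenaline, were near 0, with 6 and 25 reads over the Axin2+ libraries and 0 and 64 over the Axin2- libraries. For ATP, Nt5e, the ectoenzyme that turns AMP into adenosine, rose to 37.6 ± 7.56 CPM in Axin2+, against 10.6 ± 2.87 CPM in Axin2- (SD, n = 3 each; edgeR adjusted p = 0.00262). Entpd2, which degrades extracellular ATP, fell by 1.21 on the log2 scale (edgeR adjusted p = 0.0258), and its call was lost in 3 of 6 fits that left out a library (up to 0.0860) and with mouse as a block (0.0639). Oxt, which encodes oxytocin, had 0 reads in each Axin2+ library, against 16, 23 and 8 reads in Axin2- of mice 1, 2 and 3, too few to be tested. Against a floor of 3 reads per library, Oxt was at least 5.34-fold lower in Axin2+, and floors cover counting error only. Avp, which encodes vasopressin and lies next to Oxt in the genome, had 0 reads in each Axin2+ library, against 5, 6 and 4 reads in Axin2-. Chat, which makes acetylcholine, had 0 reads over the Axin2+ libraries and 4 over the Axin2- libraries. The ligand list had 7 genes that passed with all libraries, 4 without the Axin2+ library of mouse 2, 11 without that of mouse 3 and 12 in DESeq2.

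Of 24 other receptors that act on myometrium and were tested, 9 fell and 4 rose, beside 12.8% and 14.5% of all tested genes. Their median log2 fold change was -1.01. Ramp1, a subunit of the receptor for calcitonin gene-related peptide, fell to 5.72 ± 0.528 CPM in Axin2+, against 29.5 ± 6.86 CPM in Axin2- (SD, n = 3 each; edgeR adjusted p = 6.17e-04). Lpar1, a receptor for lysophosphatidic acid, fell to 34.6 ± 11.9 CPM in Axin2+, against 112 ± 15.8 CPM in Axin2- (adjusted p = 0.00485). Ptger4, a receptor for prostaglandin E2, fell by 1.19 ± 0.15 (SE) on the log2 scale (edgeR adjusted p = 0.00201). Ptger2, another receptor for that prostaglandin, rose by 2.74 ± 0.59 (SE; adjusted p = 0.0141), a change of 3.49 without the Axin2- library of mouse 3, and its call was lost without the Axin2+ library of mouse 2 (0.0531). Lpar3, another receptor for that lipid, known in mice from the uterine epithelium at implantation, rose to 24.5 ± 7.37 CPM in Axin2+, against 1.88 ± 1.33 CPM in Axin2- (adjusted p = 0.00299). The log2 fold change of Lpar3, 3.70, was 4.46 without the Axin2- library of mouse 2. P2ry6, a receptor for uridine diphosphate, rose by 3.25 on the log2 scale (edgeR adjusted p = 0.0229), its call was lost in 4 of 6 fits that left out a library (up to 0.0763), and the value was 2.45 without the Axin2+ library of mouse 1. Without the Axin2- library of mouse 1 the receptors of this list that passed numbered 8, against 13 with all libraries.

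Downstream of the receptors, 4 of 38 G proteins and effectors rose and 12 fell, beside 14.5% and 12.8% of all tested genes. Their median log2 fold change was -0.21. Cacna1c, the pore subunit of the L-type calcium channel that carries the contractile calcium current, fell to 19.3, 24.2 and 32.2 CPM in Axin2+, against 223, 90.9 and 175 CPM in Axin2- (log2 fold change -2.69 ± 0.36 SE, edgeR adjusted p = 0.00235). The calcium release channels Itpr2 and Itpr3 rose, Itpr3 to 173, 159 and 139 CPM in Axin2+, against 52.8, 36.4 and 36.9 CPM in Axin2- (adjusted p = 6.43e-04). Itpr1, the third of these channels, did not pass (log2 fold change -0.24, adjusted p = 0.305). Adcy5, an adenylyl cyclase, fell by 2.46 on the log2 scale, and its relative Adcy6 rose by 0.65 (adjusted p = 0.00342 and 0.00660). Gnao1, the alpha subunit of Go, fell by 1.82 ± 0.28 (SE; edgeR adjusted p = 0.00378). Gnaq, which encodes the alpha subunit of Gq, fell by 0.37 on the log2 scale (adjusted p = 0.0440), a call that was lost in each of 6 fits that left out a library (up to 0.127), with mouse as a block (0.0744), without the low-count filter (0.0649) and with library-size scaling (0.233). The number of these genes that passed was 10 without the Axin2- library of mouse 3 and 10 without the Axin2+ library of mouse 2, against 16.

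Myosin light chain phosphorylation, the step on which the Gq-coupled receptors converge, showed 10 of 17 genes lower and none higher in Axin2+. All tested genes had 12.8% lower and 14.5% higher, and the median log2 fold change of the list was -0.70. None rose at an unadjusted p under 0.05 in edgeR, and 0 rose in DESeq2. Mylk, the myosin light chain kinase, fell to 129, 165 and 207 CPM in Axin2+, against 1349, 828 and 1166 CPM in Axin2- (edgeR adjusted p = 6.35e-04). Ppp1r14a, an inhibitor of myosin phosphatase, fell to 5.34 ± 1.21 CPM in Axin2+, against 46.0 ± 11.1 CPM in Axin2- (SD, n = 3 each; adjusted p = 4.79e-04). Subunits of that phosphatase fell as well, Ppp1r12a, Ppp1r12b and Ppp1r12c, with log2 fold changes of -1.13, -1.82 and -0.87. Ppp1r12c passed in 3 of 6 fits that left out a library. Myl9, a regulatory light chain, fell by 3.16 ± 0.40 (SE) on the log2 scale (edgeR adjusted p = 0.00194). The list had 6 genes that passed without the Axin2- library of mouse 1, 6 without that of mouse 3 and 6 without the Axin2+ library of mouse 2. Of 14 genes that desensitise receptors, 4 fell and 0 rose, beside the same 12.8% and 14.5%. In that list 1 rose at an unadjusted p under 0.05 and 1 in DESeq2. Rgs3, which shortens G protein signals, fell to 30.6 ± 4.67 CPM in Axin2+, against 50.7 ± 1.15 CPM in Axin2- (edgeR adjusted p = 0.0102) and passed in each of 6 fits that left out a library. Rgs4, a regulator of the same kind, and Grk4, a receptor kinase, fell by 3.68 and 1.20 on the log2 scale (adjusted p = 0.0186 and 0.0281), and their calls were lost in 3 and 4 of those fits (up to 0.0556 and 0.100). The log2 fold change of Rgs4 was -3.03 without the Axin2- library of mouse 1 and -4.47 without the Axin2+ library of mouse 2, and Rgs4 did not pass with mouse as a block (0.0770). The arrestin Arrb1 did not pass (log2 fold change 0.10, adjusted p = 0.526). That list had 1 gene that passed without the Axin2- library of mouse 1, 1 without that of mouse 3 and 2 without the Axin2+ library of mouse 2.

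**Figure D4:**
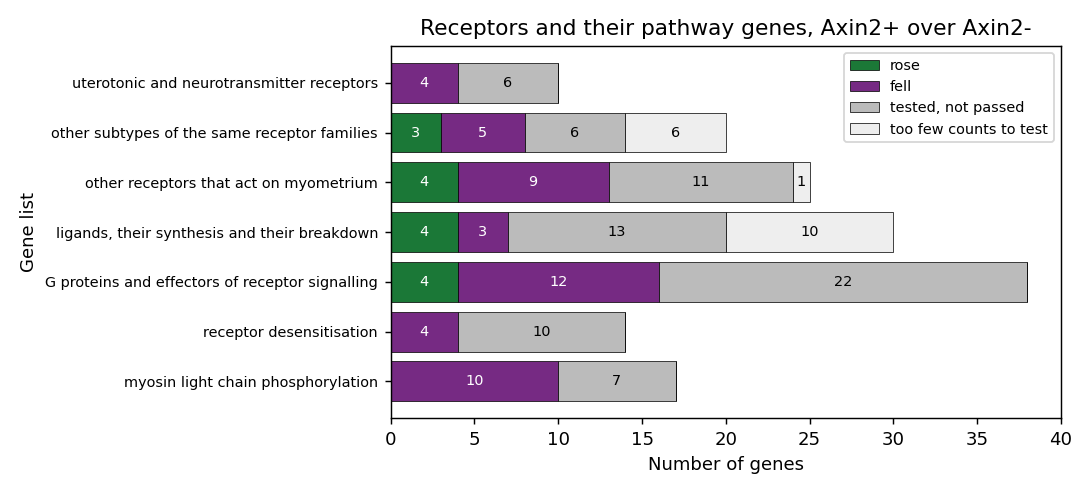
Number of genes in the receptor set and in 6 lists of related genes that rose (green), fell (purple), were tested and did not pass (grey), or had too few counts to test (pale), in Axin2+ over Axin2- by edgeR at an adjusted p of at most 0.05. Of the 10 receptors 4 fell and 6 did not pass, and the myosin light chain list had 10 genes that fell.

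The receptors that fell were set beside the marker sums library by library. The summed smooth muscle markers stood at 546, 626 and 809.5 CPM in the Axin2+ libraries of mice 1, 2 and 3 and at 8832, 3502 and 7032 CPM in the Axin2- libraries, where they spanned 2.52-fold with mouse 2 lowest. Across the same Axin2- libraries Oxtr spanned 3.44-fold, and Ednra, Agtr1a and Adra2a spanned 1.15-fold, 1.11-fold and 1.34-fold. Adra2a, Ednrb and P2rx1 were lowest in mouse 1 and highest in mouse 2, as were the summed endothelial, epithelial and interstitial cell markers. Agtr1a had the order of the smooth muscle, fibroblast and mesothelial sums, with mouse 1 highest and mouse 2 lowest. Some of these ranks rest on small gaps. Agtr1a stood at 12.9 and 12.6 CPM in mice 1 and 3, and Adra2a at 57.5 and 56.7 CPM in mice 2 and 3. Oxtr, like those sums, was highest in mouse 1, and it was lowest in mouse 3. Ednra, Avpr1a, Chrm2 and Chrm3 were lowest in mouse 2 and highest in mouse 3. That was the order also of the summed macrophage markers and of the summed pericyte markers. The pericyte sum stood at 66.3, 146 and 158 CPM in Axin2+ and 476, 334 and 629 CPM in Axin2-. Among the Axin2+ libraries, Ednra, Oxtr, Adra1a and Adra2a were lowest in mouse 1, where the pericyte, smooth muscle and endothelial sums were lowest too. Ednra, Oxtr, Adra2a and the endothelial sum were highest in mouse 2, and Adra1a and the pericyte and smooth muscle sums in mouse 3. Ednrb, Agtr1a, Avpr1a, Chrm3 and P2rx1 were highest in mouse 1, as were the fibroblast, epithelial, macrophage and mesothelial sums. With 3 libraries per fraction these orders are descriptions. The summed nerve and glia markers stood at 14.4 to 41.6 CPM in Axin2+ and 53.3 to 61.7 CPM in Axin2-. Of the 7 tested, Uchl1 fell, a call that was lost in 5 of 6 fits that left out a library, all but the fit without the Axin2- library of mouse 1 (adjusted p up to 0.0799). The summed endothelial markers stood at 306, 511 and 343 CPM in Axin2+ and 254, 314 and 296 CPM in Axin2- of mice 1, 2 and 3. Of the endothelial markers 6 of 10 rose, and 3 passed without the Axin2- library of mouse 3 or the Axin2+ library of mouse 2. Cdh5, the cadherin of endothelial junctions, ran the other way, at 55.1, 88.3 and 93.4 CPM in Axin2+ and 98.9, 169 and 151 CPM in Axin2- of mice 1, 2 and 3. It did not pass in edgeR (adjusted p = 0.0559), and it passed as lower with mouse as a block (0.00947), in DESeq2 (0.0152), with at least 1 CPM in 3 libraries (0.0489) and without the Axin2- library of mouse 1 (0.0368). Of the 2 interstitial cell markers Kit rose and Ano1 fell. Kit passed in 5 of 6 fits that left out a library, all but that without the Axin2+ library of mouse 2. Ano1 passed in 1 of those fits, and it did not pass in edgeR with library-size scaling (adjusted p = 0.0923). The summed fibroblast markers stood at 10078, 8061 and 7152 CPM in Axin2+ and 26582, 13543 and 22285 CPM in Axin2- of mice 1, 2 and 3. S100b had 0 reads in the Axin2- libraries, and no other nerve, endothelial, fibroblast or pericyte marker was at 0 in a whole fraction. The part of these cell types in the receptor levels was not tested.

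**Figure D5:**
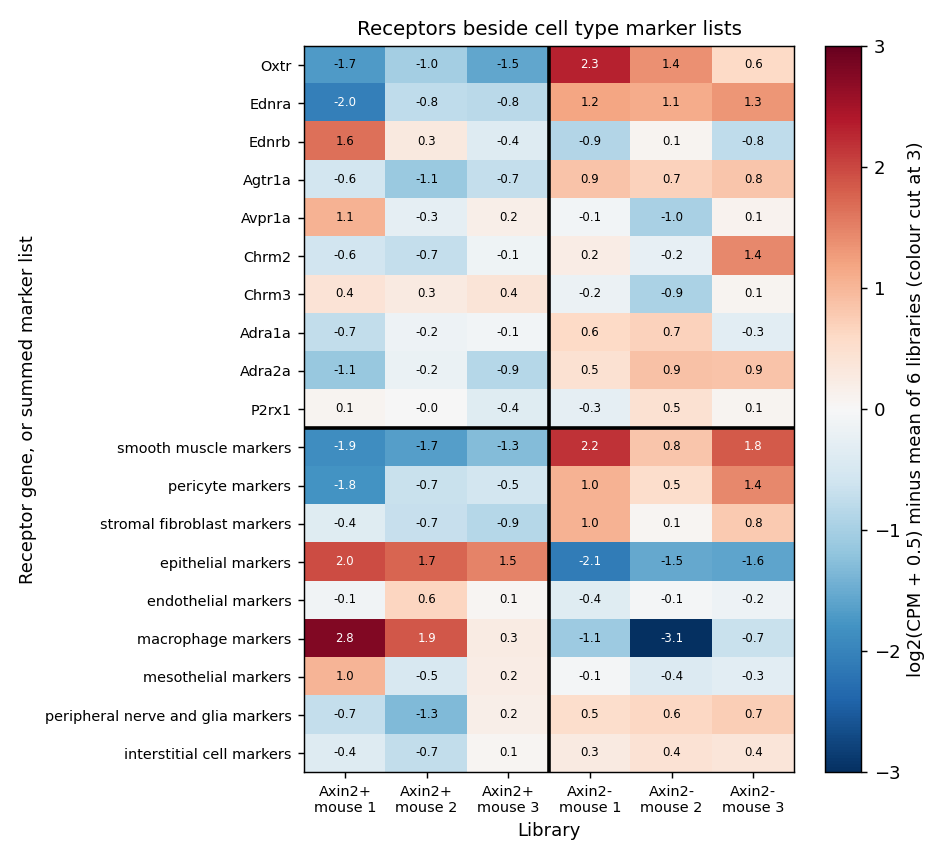
Log2(CPM + 0.5) of each receptor, and of the summed CPM of each cell type marker list, minus its mean over 6 libraries, with Axin2+ at the left and Axin2- at the right (red above and blue below the mean, colour cut at 3). Oxtr, Ednra, Agtr1a and Adra2a are below their mean in all 3 Axin2+ libraries, and Ednrb and Avpr1a are highest in the Axin2+ library of mouse 1.

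The genes whose pattern over the 6 libraries was most like that of each receptor were taken by the root mean square difference of log2(CPM + 0.5), after each gene was centred on its own mean, among 11076 genes with a mean of at least 5 CPM. Nearest to Oxtr were Frzb, Wscd2 and Sfrp4 (0.37 to 0.45), and Frzb and Sfrp4 among them encode secreted Wnt antagonists. Nearest to Ednra were Akap12, Matn2 and Pdgfrl (0.14 to 0.16), nearest to Agtr1a Socs1, Scarf2 and St6galnac6 (0.08 to 0.12), and nearest to Adra2a St8sia2, Tmem204 and Cdkn1c (0.17 to 0.21). For comparison, the difference from Myh11, the smooth muscle myosin, was 1.57 for Oxtr, 1.77 for Ednra, 2.11 for Agtr1a and 2.21 for Adra2a. The difference from Epcam was larger for each, at 3.62 for Oxtr, 3.36 for Ednra, 2.94 for Agtr1a and 2.86 for Adra2a. The median over all candidate genes was 1.55, 1.31, 0.85 and 0.84 in the same order of receptors. Since Myh11 fell and Epcam rose, a smaller difference from Myh11 follows from the call of these receptors and adds nothing to it. Adra1a, which did not pass, differed by 2.63 from Myh11 and 2.48 from Epcam. Ednrb, Avpr1a and Chrm3 differed by 3.49, 3.18 and 3.19 from Myh11 and by 1.73, 1.96 and 1.87 from Epcam. Among receptors that did not pass, the nearest genes were Ptpro, Rnf39 and Sepp1 (0.18 to 0.24) for Ednrb, Col8a2, Phyhd1 and Bcar3 (0.19 to 0.23) for Avpr1a, Nfib, Slc2a1 and Shb (0.11 to 0.13) for Chrm3 and Egfr, Mllt3 and Rnaseh2b (0.15 each) for Adra1a. Chrm2 and P2rx1 were below a mean of 1 CPM and were left out. These differences describe 6 libraries that share their mice and fractions.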

How the data were processed

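Raw counts for each gene and library were deposited by the authors. Per the submitters' processing notes, the tools were STAR 2.5.3a, featureCounts 1.5.3 of Subread, StringTie 1.3.3, edgeR 3.22.5 and bcl2fastq 2.20.0.422, with the build mm10. Not given in the sources used here were the annotation and whether strand was used in counting. Another deposited table holds the authors' own comparison. Its columns, named in its header, are a log2 fold change, a log2 CPM, an F score and p-values with FDR, as deposited. It lists 15469 named genes, among them 8 of the 10 receptors, all but Chrm2 and P2rx1. It gives an FDR of at most 0.05 to 4, Oxtr, Ednra, Agtr1a and Adra2a. The share of all its genes at that FDR was not taken. It rests on the same libraries and is not separate evidence.

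Counts were tested in R 4.3.3 with edgeR 4.0.16 (filterByExpr, TMM factors, robust quasi-likelihood F test, no mouse term), with Benjamini-Hochberg adjustment across the 16896 genes that passed the filter. DESeq2 1.42.0 was an alternative. An SE is the absolute log2 fold change divided by the square root of F. CPM per kilobase used union exon lengths of GENCODE M21 (GRCm38), whose annotation also gave coordinates. Fits were also run on simulated counts with far fewer changed genes than passed here, so that run does not test the scaling between fractions. No libraries of a fraction agreed within sampling noise (lowest chi-square per degree of freedom 62.6). The labels' numerals, called mouse numbers, pair the libraries, although the labels also mention pooling. Deviations from the fraction means correlated at 0.27, 0.01 and -0.07 for numbers 1, 2 and 3, and at up to 0.25 between libraries of different numbers.

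The receptors and the 15 lists of 230 genes (227 matched directly and 3 through an older symbol) were chosen with earlier results of these data known. Named were all receptors, Axin2, and, in every list, as many as 3 genes that rose and 3 that fell, taken by smallest p (without any call, the 2 most abundant), plus the 3 genes most like each receptor. Marker lists are given mostly by counts and sums. Ece1, Th, Dbh, Oxt, Avp, Chat, Itpr1, Gnaq, Arrb1, Agtr1b, Edn3, Chrm4, P2rx7, Ppp1r12a, Ppp1r12b and Ppp1r12c were chosen after their values were seen where they fall outside that rule.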

Additional observations from a re-analysis of the deposited data

How the results depend on the processing

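Oxtr, Ednra, Agtr1a and Adra2a passed as lower in each of 13 alternatives, with log2 fold changes of -3.67 to -2.74, -2.59 to -2.05, -1.82 to -1.51 and -1.77 to -1.26. No receptor changed sign in those 13 (12 for Chrm2 and P2rx1, not tested under the filter of 1 CPM), and the 1 receptor that gained a call was Ednrb, so that 1 rose in DESeq2, and 0 to 1 in fits without a library. With mouse as a block (paired by the labels), 4 receptors fell and 0 rose, and 4 other subtypes passed, against 8; the block moved no other count of the receptors and their pathway lists by over 1.5 times. Ligand genes numbered 12 in DESeq2, against 7, and other subtypes 5 with at least 1 CPM in 3 libraries, where fewer genes were tested. Leaving out a library gave 2544 to 4114 genes that passed in all, 1491 to 2304 that rose and 1053 to 1911 that fell, against 4618, 2447 and 2171. It gave 3 to 6 other subtypes, 8 to 12 other receptors of myometrium, 4 to 11 ligand genes, 10 to 15 G proteins and effectors, 1 to 5 desensitisation genes and 6 to 11 myosin light chain genes; fewer samples enter these fits. Library-size scaling moved the median log2 fold change of all genes by 0.17, and 32.6% of calls then fell, against 47.0%. Depth limits Chrm2 and P2rx1, the receptors with the fewest reads.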
